A study of Homo sapiens with 24 samples.

Results

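The supernatant of a Propionibacterium freudenreichii culture grown in DMEM (SN, diluted to 1/2) was compared with a mixture of the fermentation acids of this bacterium, 30 mM propionate and 15 mM acetate (C3/C2, given as sodium salts), in HT29 cells. HT29 is an established human colon adenocarcinoma line. The comparison asks which transcripts respond to the supernatant beyond the response to these acids, and it rests on 8 of the 24 arrays of the series, 4 of SN and 4 of C3/C2. Cells were treated for 6 h. The other arrays hold 4 each of untreated cells (NT), of TRAIL (100 ng/ml with 2 µg/ml anti-Flag M2 antibody), of TRAIL+C3/C2 and of TRAIL+SN. TRAIL is a death ligand of the tumour necrosis factor family, and the antibody cross-links its Flag tag. The 4 arrays of a group stand for 2 independent experiments in a single line, each in duplicate. Which arrays share an experiment is not stated. The p-values therefore measure a spread between arrays that may be partly technical. This spread is pooled over all 6 groups, including arrays outside the comparison. On principal component 4 of the 24 arrays, replicates 1 and 2 had positive and replicates 3 and 4 negative values in every group. Whether these pairs are the 2 experiments was not tested.

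The slides matter for every value below. C3/C2 replicate 1 lay on slide 1 and replicates 2 to 4 on slide 2, beside the NT arrays of the same numbers, whereas all SN arrays lay on slide 3 beside all TRAIL arrays. Treatment and slide therefore cannot be told apart in SN against C3/C2. TRAIL+SN and TRAIL+C3/C2 lay together on slide 4, so the same contrast in the presence of TRAIL was free of the slide. TRAIL against NT set slide 3 against slides 1 and 2, as SN against C3/C2 did, and held the effect of TRAIL as well. Both were fitted to all genes and are given beside the results.

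Short-chain fatty acids such as propionate inhibit histone deacetylases and change the expression of many genes in colonocytes. A culture supernatant holds in addition other products of the bacterium and may lack nutrients that the bacterium took up. Cells read such changes through dedicated sensors. The aryl hydrocarbon receptor is a transcription factor activated by small planar molecules, among them microbial metabolites, and it drives cytochrome P450 genes. Shortage of an amino acid, or stress in the endoplasmic reticulum, leads to phosphorylation of the translation factor eIF2, translation of ATF4 and transcription of amino acid transporters and synthetic enzymes.

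Of 20703 genes tested, 265 (1.28%) were higher with SN than with C3/C2 and 914 (4.41%) were lower, where a call required a 2-fold difference and a limma p below 0.05 after Benjamini-Hochberg adjustment. The median difference over all genes was -0.05 on the log2 scale. The split depended on the scaling of the arrays: 22.5% of the calls were rises with the 75th percentile of each array as zero, 43.9% with the array median and 56.3% with the spike-in probes. In the presence of TRAIL, on 1 slide, 202 genes (0.976%) were higher with SN and 529 (2.56%) were lower. Of the 265 genes that rose without TRAIL, 132 also rose with it, which is 49.8% of the first list and 65.3% of the second, none was called the other way, and the median difference of the 265 there was 1.01. Of the 914 that fell, 242 also fell with TRAIL (26.5% of the first list and 45.7% of the second), 4 were called higher, and the median of the 914 was -0.42.

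**Figure D1:**
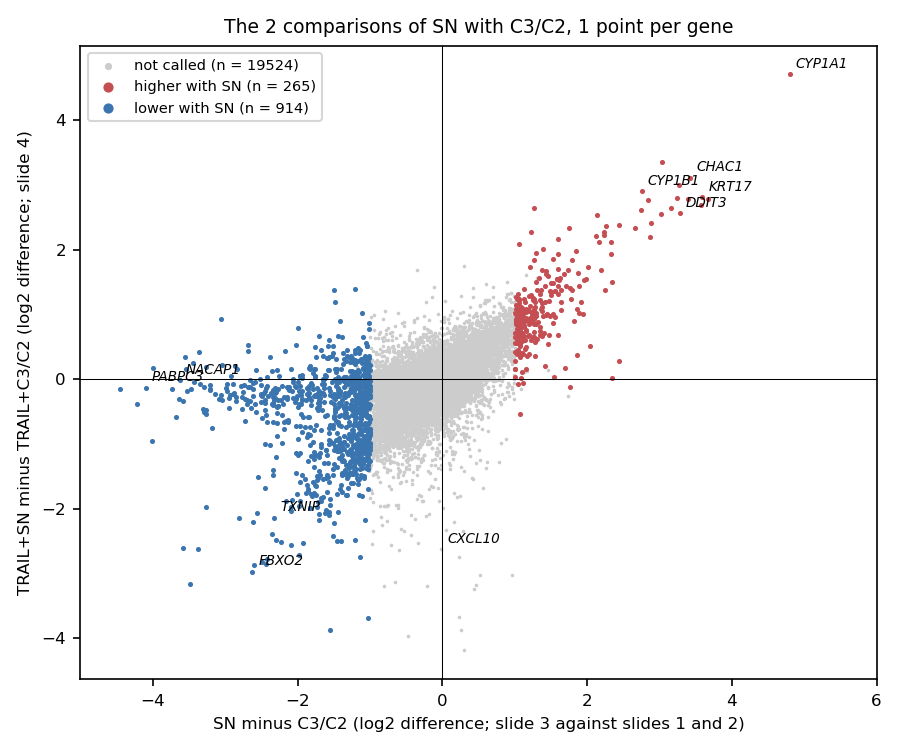
Log2 difference of SN minus C3/C2 without TRAIL (horizontal) against TRAIL+SN minus TRAIL+C3/C2 (vertical), with 1 point for each of 20703 genes and colours by the call in the horizontal comparison (red, 265 higher; blue, 914 lower; grey, not called). Most red points lie above zero on both axes, while the blue points form a branch near zero on the vertical axis (PABPC3, NACAP1) and a second branch below it (TXNIP, FBXO2).

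The largest rise was that of CYP1A1, the cytochrome P450 that oxidises aromatic compounds and the best known target of the aryl hydrocarbon receptor. Levels are log2 intensities with each array's 75th percentile set to 0. CYP1A1 was at 3.47, 3.57, 4.07 and 4.16 in the SN arrays and at -1.32, -1.56, -0.61 and -0.43 in the C3/C2 arrays. All SN arrays stood far above all C3/C2 arrays, and within both groups replicates 3 and 4 were higher than replicates 1 and 2. The difference was 4.80 (SE 0.25), a 27.8-fold higher signal with SN (limma adjusted p = 1.61e-11). With TRAIL it was 4.71 (SE 0.25), and TRAIL minus NT was -0.15. CYP1A1 was 3.03 higher with C3/C2 than in NT and 7.83 higher with SN than in NT, with the slide in the second value.

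CYP1B1, a related P450 of the same pathway, was at 3.64 to 4.21 with SN and at 1.00 to 1.33 with C3/C2, a difference of 2.75 (SE 0.14) without and 2.91 with TRAIL. Against NT it went opposite ways, with -0.91 for C3/C2 and 1.84 for SN. TIPARP, an ADP-ribosyltransferase that feeds back on the receptor, was at 4.28, 4.38, 4.48 and 4.51 with SN and at 3.19, 2.96, 3.24 and 3.23 with C3/C2. The groups did not overlap, and the 2.39-fold difference was 2.08-fold with TRAIL. Of the 11 genes of the aryl hydrocarbon receptor pathway tested, these 3 rose, 8 did not pass and none fell, and with TRAIL these 3 rose together with CYP1A2 (1.26; 0.88 without TRAIL), so 4 in all. The list median was 0.35. Over all genes tested 1.28% rose and 4.41% fell, shares that stand beside this list and the later ones. The lists were chosen with earlier results of these data known. The receptor AHR itself differed by -0.30, its partner ARNT by -0.16 and its repressor AHRR by 0.48, none of them called.

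The promoters of the receptor's targets are shown because the 5 letters GCGTG form the core of the xenobiotic response element to which the receptor binds. In RefSeq windows from 250 bases before to 50 bases after the gene start (GRCh38.p14), GCGTG on either strand was present in 5 of the 8 pathway members with a window, and in 36.3% of all 27305 windows. The 250 bases before the start of CYP1A1 (chr15:74725529-74725778, minus strand) and of TIPARP (chr3:156674340-156674589, plus strand) follow, 5′ to 3′ on the strand of the gene, with GCGTG or its reverse complement CACGC in capitals.
CYP1A1: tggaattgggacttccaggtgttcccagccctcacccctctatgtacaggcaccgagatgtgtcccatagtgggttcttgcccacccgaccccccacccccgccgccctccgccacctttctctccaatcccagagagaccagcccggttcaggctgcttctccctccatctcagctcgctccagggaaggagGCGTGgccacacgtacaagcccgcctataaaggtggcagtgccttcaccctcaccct
TIPARP: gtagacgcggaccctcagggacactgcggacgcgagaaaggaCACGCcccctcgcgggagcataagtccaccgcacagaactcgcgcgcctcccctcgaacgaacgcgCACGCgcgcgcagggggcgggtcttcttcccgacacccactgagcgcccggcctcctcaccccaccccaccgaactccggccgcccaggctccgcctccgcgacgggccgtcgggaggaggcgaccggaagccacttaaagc
CYP1A1 held 1 match, 57 bases before the start, and TIPARP held 2, at 208 and 142 bases before it. A match describes the letters and not binding in these cells.

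Genes of the amino acid response formed the list with the most rises. Of 23 targets of ATF4 tested, 12 were higher with SN than with C3/C2, 11 did not pass and none fell, with a list median of 1.10. Over all genes tested, 1.28% were higher and 4.41% lower. With TRAIL, 10 rose, and all 10 were among the 12. ATF5 fell there by 1.01 (-0.70 without TRAIL). TRAIL against NT called none of the 23, with a median of 0.27. Against NT, DDIT3 stood 3.78 higher in SN and 0.50 higher in C3/C2.

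CHAC1, which degrades glutathione, led the list. It was at 5.20, 5.11, 5.36 and 5.12 with SN and at 1.59, 1.39, 2.08 and 2.06 with C3/C2. The SN arrays lay close together and well apart from the C3/C2 arrays. The signal was 10.7-fold higher (log2 difference 3.42, SE 0.35, limma adjusted p = 1.31e-07), and 8.65-fold higher with TRAIL.

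DDIT3, the transcription factor CHOP of the stress response, was at 2.42, 2.27, 3.38 and 3.16 with SN and at -0.74, -0.81, -0.16 and -0.16 with C3/C2. ATF3, a stress-induced repressor, was at 3.87, 3.88, 4.75 and 4.55 with SN and at 0.97, 1.02, 1.44 and 1.54 with C3/C2. Neither gene's groups overlapped, and in both genes and both groups replicates 3 and 4 were the higher pair. The differences were 3.28 (SE 0.31) and 3.02 (SE 0.31), with 2.56 for each in the presence of TRAIL. Of 4 ATF3 probes, 1 showed a difference of 0.23 that was not called, and the other 3 showed 2.88 to 3.02.

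FGF21, a hormone secreted under nutrient stress, was well above background on all 4 SN arrays and on no C3/C2 array. Its levels were -4.39, -3.91, -3.95 and -4.24 with SN and between -7.85 and -6.25 with C3/C2. The difference was at least 3.03-fold, since the C3/C2 level is only a bound, and FGF21 was likewise above background on all TRAIL+SN arrays and on none of TRAIL+C3/C2.

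The enzymes and transporters of amino acid supply followed. Asparagine synthetase (ASNS) was at 6.72, 6.76, 6.83 and 6.74 with SN and at 4.32, 4.19, 4.74 and 4.73 with C3/C2. C3/C2 stood at the NT level (difference -0.05) and SN stood 2.21 above it. The difference between SN and C3/C2 was 4.81-fold without and 5.12-fold with TRAIL. SLC7A11, which imports cystine in exchange for glutamate, was at 4.16 to 4.37 with SN and at 2.03 to 2.28 with C3/C2, which is 4.49-fold. With C3/C2 the gene fell by 1.58 against NT, and with SN it differed from NT by 0.58. SLC3A2 (1.44), the heavy chain that pairs with SLC7A11 and SLC7A5, SLC7A5 itself (1.19), the serine synthesis enzyme PSAT1 (1.33) and the mTOR inhibitor DDIT4 (1.10) rose in both designs. NUPR1 (1.89) and SESN2 (1.13) passed without TRAIL and not in its presence (1.43 and 0.81). The change between the designs was called for neither, where a call also needs a fold of 2. ATF4 mRNA (0.66), TRIB3 (0.90), PHGDH (0.68) and VLDLR (0.85) did not reach a fold of 2.

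**Figure D2:**
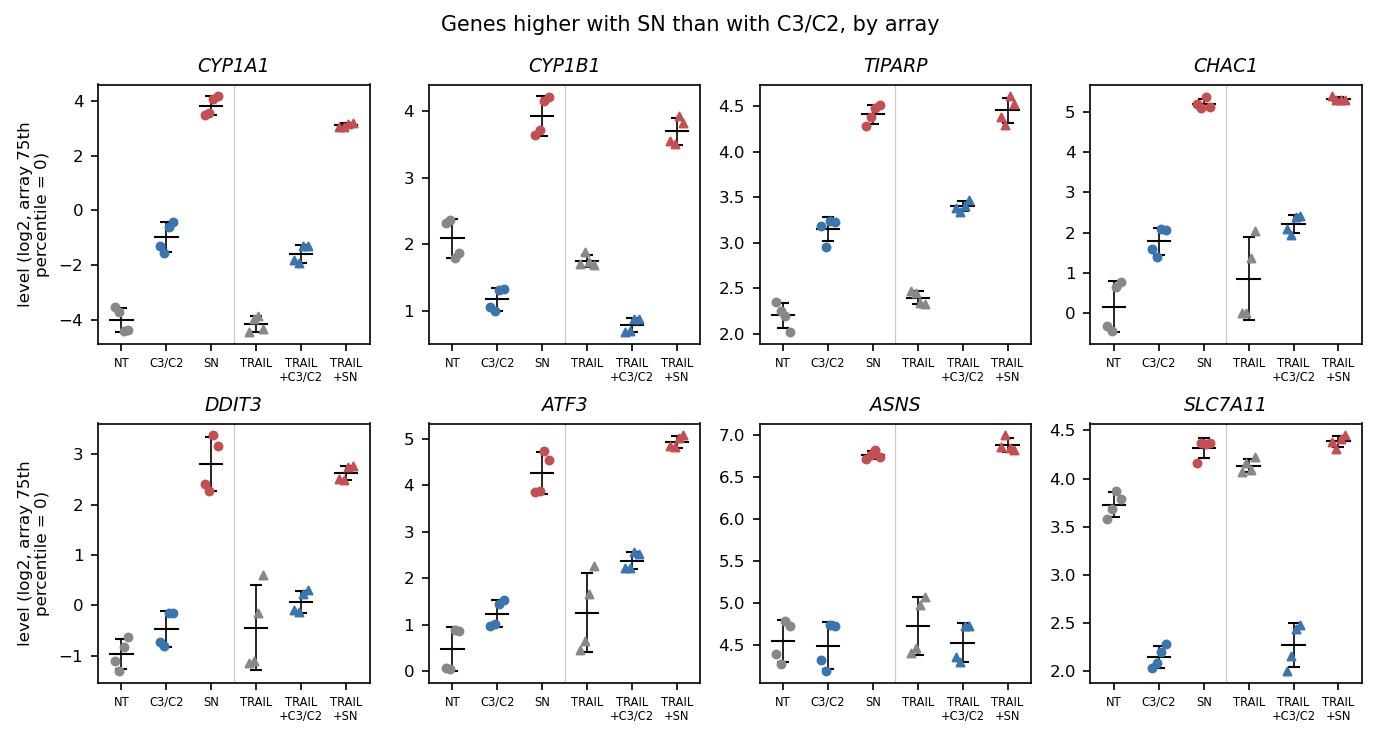
Levels of 8 genes on each array (vertical, log2 intensity with the 75th percentile of the array at 0) in the 6 groups (horizontal; 4 points each, replicates 1 to 4 from left to right; bars are mean and SD; grey, no acids or supernatant; blue, C3/C2; red, SN; circles without and triangles with TRAIL). In every panel all SN arrays lie above all C3/C2 arrays, with CYP1A1 at 3.47 to 4.16 against -1.56 to -0.43, and the same order holds with TRAIL.

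The C/EBP-ATF response element TGATGCAA, to which ATF4 and its partners bind, was present on either strand in the windows of 2 of the 19 list members with a window, CHAC1 and FGF21, and in 0.923% of all windows. The 250 bases before the start of CHAC1 (chr15:40953221-40953470, plus strand) and FGF21 (chr19:48755274-48755523, plus strand) are shown with the match, here the reverse complement TTGCATCA, in capitals. It starts 209 bases before the start of CHAC1 and 54 bases before that of FGF21.
CHAC1: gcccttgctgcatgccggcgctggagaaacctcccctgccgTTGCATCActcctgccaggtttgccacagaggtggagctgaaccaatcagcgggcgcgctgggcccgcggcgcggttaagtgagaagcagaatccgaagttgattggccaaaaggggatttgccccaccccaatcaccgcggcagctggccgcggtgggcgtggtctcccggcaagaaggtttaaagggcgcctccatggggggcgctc
FGF21: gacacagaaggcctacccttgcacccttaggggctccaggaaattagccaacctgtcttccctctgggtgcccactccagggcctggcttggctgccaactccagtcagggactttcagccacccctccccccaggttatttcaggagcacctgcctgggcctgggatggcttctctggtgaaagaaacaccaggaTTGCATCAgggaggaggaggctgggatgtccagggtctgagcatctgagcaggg

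Other stress lists held fewer calls. Of 12 genes of the unfolded protein response, HERPUD1, a component of endoplasmic reticulum degradation, rose (3.13-fold; 2.6-fold with TRAIL), and the chaperone HSPA5 (0.89) and the other 10 did not pass. Of 19 targets of NRF2, the regulator of the oxidative stress response, SLC7A11 and OSGIN1 (1.26) were higher, while NQO1 (-0.06), GCLC (-0.06) and HMOX1 (0.82) did not pass. OSGIN1 did not reach a fold of 2 with TRAIL (0.72) and after TRAIL minus NT was taken out (0.79). No heat shock protein of 14 passed (HSPA1A -0.49), and no hypoxia target of 18. Letters of other elements were counted in the same windows on both strands. The antioxidant element TGACNNNGC was in 5 of 14 NRF2 windows (35.7%) and in 13.6% of all windows. The hypoxia core ACGTG was in 8 of 15 windows of its list (53.3%) and in 21.6% of all. The sterol core TCACNCCAC was in 1 of 15 cholesterol synthesis windows (6.67%) and in 1.15% of all. The metal core TGCNCNC was in all 6 metallothionein windows and in 55.2% of all. The NF-kB site was in 20 of 21 windows of its list (95.2%) and in 58.0% of all.

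Genes of growth factor signalling held the next largest numbers of rises. Of 12 immediate early genes, which respond to growth factors and stress within minutes, EGR1, EGR2, JUN, FOS and FOSL1 rose and 7 did not pass, with a median of 0.68. EGR1 was at 1.67, 1.55, 3.33 and 3.17 with SN and at -0.06, -0.05, 0.38 and 0.46 with C3/C2. Every SN array was above every C3/C2 array, and among the SN arrays replicates 3 and 4 were far above replicates 1 and 2. The difference was 2.25 (SE 0.33), and 1.38 with TRAIL. FOSL1 rose in both designs (1.37 and 1.06), whereas FOS (1.45 without and 0.54 with TRAIL), JUN (1.47 and 0.68) and EGR2 (1.48 and 0.98) passed without TRAIL and not with it. The change of the difference with TRAIL missed a fold of 2 in all of these 3. It was -0.91 for FOS, -0.79 for JUN and -0.50 for EGR2 (limma adjusted p = 0.000615, 0.00488 and 0.608). NR4A2 differed by -0.73 and fell with TRAIL (-1.25). After TRAIL minus NT, which holds any effect of TRAIL, was taken out, FOS (0.98) and EGR2 (0.95) no longer reached a fold of 2.

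Of 13 EGF receptor ligands and MAP kinase feedback genes, 4 rose, with a median of 0.81. Amphiregulin (AREG) was at 5.41, 5.53, 5.30 and 5.31 with SN and at 3.92, 3.93, 3.78 and 3.80 with C3/C2. Epiregulin (EREG) was at 1.38 to 1.77 with SN and at -0.36 to 0.00 with C3/C2. The groups were apart in both ligands, by 2.89-fold and 3.28-fold, and by 2.80-fold and 2.71-fold with TRAIL. HBEGF (1.43, and 0.99 with TRAIL) and the feedback inhibitor SPRY4 (1.35, and 0.68 with TRAIL) passed without TRAIL and not with it. The change of the difference with TRAIL missed a fold of 2, at -0.45 for HBEGF and -0.68 for SPRY4 (limma adjusted p = 0.302 and 0.000272). HBEGF also missed a fold of 2 after TRAIL minus NT, which holds any effect of TRAIL, was taken out (0.91). A second, dimmer SPRY4 probe differed by 0.08. DUSP6 (0.26) and SPRY2 (0.16) did not pass.

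Epidermal keratins, the structural filaments of basal and stressed epithelium, were among the largest rises. KRT17 was at 2.03, 2.08, 1.53 and 1.77 with SN and at -1.47, -1.88, -1.78 and -1.81 with C3/C2. KRT14 was at 1.32 to 1.85 with SN and at -1.88 to -1.68 with C3/C2. Both stood near the NT level with C3/C2, 0.58 and 0.53 above it. The differences were 3.59 (SE 0.13) and 3.40 (SE 0.12), which is 2.81 and 2.78 with TRAIL. KRT17 also rose with TRAIL over NT (1.25). The pseudogene KRT42P (3.16) is related in sequence to these genes and has a second probe at 0.38, so that its probes disagree and signal may be shared within the keratin family. SEMA7A, a membrane semaphorin, rose 6.71-fold and 6.09-fold with TRAIL. Its call was lost when TRAIL minus NT, which holds any effect of TRAIL, was taken out. That difference has no firm size, since SEMA7A was well above background on no NT array and on 1 TRAIL array. CYTH4 was above background with SN and not with C3/C2, at least 3.37-fold, and so was WISP2, at least 2.55-fold, which did not pass with TRAIL (0.71) or without SN replicate 1 (1.23).

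Of 9 CDK inhibitors and D-type cyclins 2 were higher and none was lower without TRAIL, while with TRAIL none was higher and CDKN1C was lower (-1.28; -0.49 without TRAIL). CDKN1A, which encodes the cyclin-dependent kinase inhibitor p21, was at 0.33, 0.27, 0.02 and 0.03 with SN and at -1.47, -1.48, -1.36 and -1.42 with C3/C2. The groups did not overlap, and the difference was 3.02-fold (log2 1.60, SE 0.12). With TRAIL it was 1.61-fold, under the threshold. The change of the log2 difference with TRAIL was -0.91 (limma adjusted p = 0.00114), which also missed a fold of 2. TRAIL minus NT, on the same pair of slide sets, was 1.31. With that taken out, which also takes out any effect of TRAIL, neither CDKN1A (0.29) nor CDKN2B (0.51) passed. CDKN1A was 2.68 above NT with C3/C2 and 4.27 above it with SN. CDKN2B, a related inhibitor, rose 2.28-fold, and its 1.32-fold difference with TRAIL did not pass. The change of its log2 difference with TRAIL was -0.79 (limma adjusted p = 0.00575). Of 20 targets of p53, CDKN1A and the stress cytokine GDF15 (3.47-fold; 2.6-fold with TRAIL) rose, and MDM2 (0.02) and BTG2 (-0.03) did not pass. All 23 mitotic genes tested were lower with SN (median -0.39), of which KIF20A passed (-1.16, and -1.22 with TRAIL). With the array median as zero 16 of the 23 were below 0 and with spike-in scaling 14, and KIF20A then missed a fold of 2. AURKA (-0.78) and CCNB2 (-0.78) did not pass. No gene of DNA replication among 23 was called (PCNA -0.47).

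**Figure D3:**
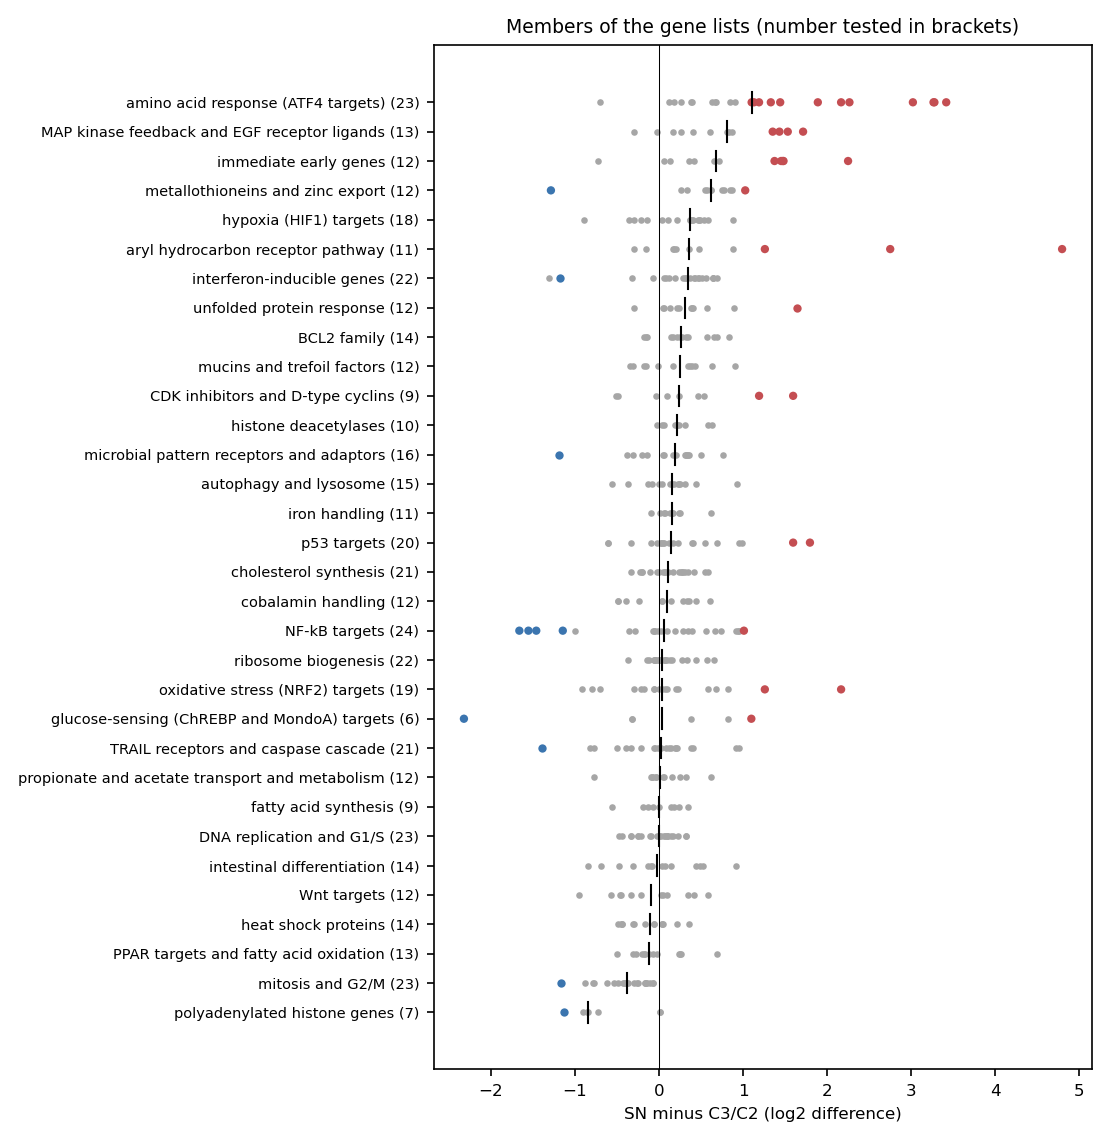
Log2 difference of SN minus C3/C2 (horizontal) for the tested members of 32 gene lists (rows, with the number tested), ordered by list median (black bar); grey points were not called, red points were higher and blue points lower with SN. The amino acid response has the highest median, 1.10, with 12 red points of 23, and 16 lists have no coloured point.

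Receptors and regulators of apoptosis differed by less than 2-fold. TNFRSF10B, the TRAIL receptor DR5, was at 4.18, 4.30, 4.16 and 4.16 with SN and at 3.33, 3.31, 3.12 and 3.21 with C3/C2. It was higher on every SN array, by 1.93-fold (log2 0.95, SE 0.10), just under the threshold, and by 1.81-fold with TRAIL. With array median or spike-in scaling it passed (1.12 and 1.22). BAK1 (0.57), MCL1 (0.32) and BCL2L1 (0.27) did not reach a fold of 2. The probes of CFLAR, an inhibitor of caspase-8 activation, differed in sign (-0.33 for the brightest and 0.27, 0.70 and 0.47 for the others), as did those of the pore-forming protein BAX (-0.16 and 0.25). The caspase inhibitor XIAP, which the naming rule leaves out, differed by -0.22. None of the 14 BCL2 family members tested was called (BCL2L2 0.83, which passed with array median and spike-in scaling at 1.01 and 1.11). Of the 21 TRAIL receptors and caspase cascade genes, the ligand TNFSF10 fell, by 1.40 without and 1.07 with TRAIL.

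Inflammatory genes did not move as a block. Of 24 NF-kB targets, TNF rose (1.01; 0.15 with TRAIL) and 4 fell, with a median of 0.06. This balance turned with the scaling, to 4 higher and 3 lower with the array median as zero and to 5 and 3 with the spike-in probes. NFKBIA, the inhibitor of NF-kB, was at 1.99 to 2.15 with SN and at 3.33 to 4.06 with C3/C2. The difference was -1.66 without and -0.48 with TRAIL, and the difference between the designs passed (1.18, limma adjusted p = 0.000188). The chemokine CXCL1 fell in both designs (-1.46 and -1.11), as did the lymphotoxin LTB (at least 1.79-fold without TRAIL, -1.85 with it), which was not well above background with SN. CCL20 fell without TRAIL (-1.15, and -0.50 with TRAIL). That call was lost with array median (-0.97) and spike-in scaling (-0.88) and with normexp (-0.70). Without slide 2, which leaves 1 C3/C2 array, the difference was -0.76. TRAIL against NT, which holds the slide as well, called 20 of the 24 higher, where 0.749% of all genes tested rose. Of 22 interferon-inducible genes MX1 fell (-1.17; -1.27 with TRAIL), but the SN arrays lay apart in pairs, at 1.19 for replicates 1 and 2 and at 0.02 and -0.08 for replicates 3 and 4. Leaving out C3/C2 replicate 1 or 2, or SN replicate 3 or 4, ended that call, with differences of -1.09, -1.12, -0.99 and -0.95, as did spike-in scaling (-0.90). TLR1 was the 1 of 16 pattern receptors and adaptors to fall (at least 1.74-fold). That call was lost with spike-in (-0.92) and quantile scaling (-0.98), with normexp (-0.18) and with the authors' table (-0.93). Single falls in these lists stand beside 4.41% of all genes tested that fell.

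Of 12 metallothioneins and zinc exporters, MT1H rose (1.03; 0.39 with TRAIL), a call lost without C3/C2 replicate 2 (0.94) or SN replicate 1 (0.98), and MT1M fell (-1.29; 0.34 with TRAIL and -1.89 in TRAIL minus NT). The list median was 0.62, with 11 of 12 members above 0, and the number of rises was 3 with array median, 5 with spike-in and 0 with quantile scaling. Of 6 glucose-sensing targets, RGS16 rose (1.10, and 0.11 with TRAIL), TXNIP fell (-2.32) and 4 were not called, with a median of 0.03. Of 7 histone genes whose transcripts can be polyadenylated, HIST1H2AC fell (-1.13; -0.85 with TRAIL) and the list median was -0.85, with H1F0 at 0.01. With array median and spike-in scaling HIST1H2AC missed a fold of 2 (-0.96 and -0.86), and its other probes differed by -1.75 and -0.79, the second not called.

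The other 16 lists, with 232 members tested, had no member called, and their differences ran from -0.95 to 0.93. With array median and with spike-in scaling 1 member rose in each of the hypoxia, autophagy, intestinal differentiation, mucin and BCL2 lists, among them SQSTM1 (1.10 and 1.20), CEACAM1 (1.09 and 1.19) and MUC17 (1.07 and 1.17). Of 12 genes of propionate and acetate transport and metabolism none passed, and the largest difference was that of the short-chain and ketone body receptor HCAR2 (-0.78; -0.83 with TRAIL). Of 12 genes that handle cobalamin, a vitamin made by this bacterium, MMAA was the farthest from 0 (0.60). It passed with TRAIL (1.00), where it was well above background on only 2 of 4 TRAIL+C3/C2 arrays. Of 10 histone deacetylases HDAC5 was the farthest from 0 (0.63). None passed among 21 genes of cholesterol synthesis (HMGCS1 0.59), 9 of fatty acid synthesis (FADS2 -0.56), 13 PPAR targets and genes of fatty acid oxidation (ANGPTL4 0.69), 11 of iron handling (SLC25A37 0.62), 15 of autophagy and lysosome (SQSTM1 0.93), 22 of ribosome biogenesis (RRP12 0.66), 14 of intestinal differentiation (CEACAM1 0.92), 12 mucins and trefoil factors (MUC17 0.90) and 12 Wnt targets (LGR5 -0.95, which passed with TRAIL at -1.05). With TRAIL, LGR5 was well above background on only 2 of 4 TRAIL+SN arrays. EGLN3, a hypoxia target, differed by -0.90 and passed with TRAIL (-1.09).

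The 242 genes lower in both designs had a median of 1.42 for C3/C2 minus NT and of -0.04 for SN minus NT. With C3/C2, 139 of them were called higher and 12 lower than in NT. With SN, 59 were called higher and 76 lower. Over all genes tested, 13.4% were higher and 6.18% lower with C3/C2 than in NT, and 14.2% and 9.75% with SN. For the 132 genes higher in both designs the medians were 0.43 for C3/C2 minus NT and 2.14 for SN minus NT. These values share arrays with SN against C3/C2 and are given side by side only.

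FBXO2, a ubiquitin ligase subunit that binds glycoproteins, was at 1.10, 1.12, 1.27 and 1.31 with C3/C2 and at -1.25, -1.19, -1.61 and -1.66 with SN. Both groups were tight and far apart, 6.18-fold lower with SN (log2 -2.63, SE 0.32, limma adjusted p = 1.11e-06), and the difference with TRAIL was -2.97. FBXO2 was above background on 2 NT arrays only, and both treatments stood above NT. CEACAM22P, a pseudogene of the CEACAM family, behaved alike (-2.56 and -2.06 with TRAIL).

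TXNIP, the inhibitor of glucose uptake whose transcription follows glucose and glycolytic flux, was at 2.95, 2.93, 2.15 and 2.05 with C3/C2 and at 0.22, 0.27, 0.27 and 0.02 with SN. All SN arrays were below all C3/C2 arrays, and here replicates 1 and 2 were the higher pair with C3/C2. The fall was 5.00-fold, and -2.13 on the log2 scale with TRAIL. TXNIP was 0.40 above NT with C3/C2 and 1.92 below it with SN, the second of which holds the slide. TRAIL minus NT was -0.16. TXNIP was the only fall among the 6 glucose-sensing targets, of which RGS16 rose and 4 were not called.

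Further genes were lower in both designs. CYP26A1, which degrades retinoic acid, was at -2.22, -2.59, -2.15 and -2.01 with C3/C2 and at -4.12, -4.57, -3.93 and -3.88 with SN. Its SN level differed from NT by -0.04, and the difference was 3.69-fold, and -1.76 with TRAIL. CYP2C18 fell by 1.98 and by 1.96 with TRAIL. ALPPL2, a placental-type alkaline phosphatase, was at 3.05 to 3.52 with C3/C2 and at 1.21 to 1.31 with SN (4.07-fold; -1.44 with TRAIL). GPRIN2 fell by 1.83 and 1.99. AMD1, which makes decarboxylated S-adenosylmethionine for polyamine synthesis, was at 4.87, 4.92, 5.22 and 5.20 with C3/C2 and at 3.40, 3.43, 3.46 and 3.50 with SN. These groups were far apart, by 3.05-fold, and by -1.53 on the log2 scale with TRAIL. AMD1 lies outside the rule for named genes and was chosen after its values were seen, as was ASNS.

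**Figure D4:**
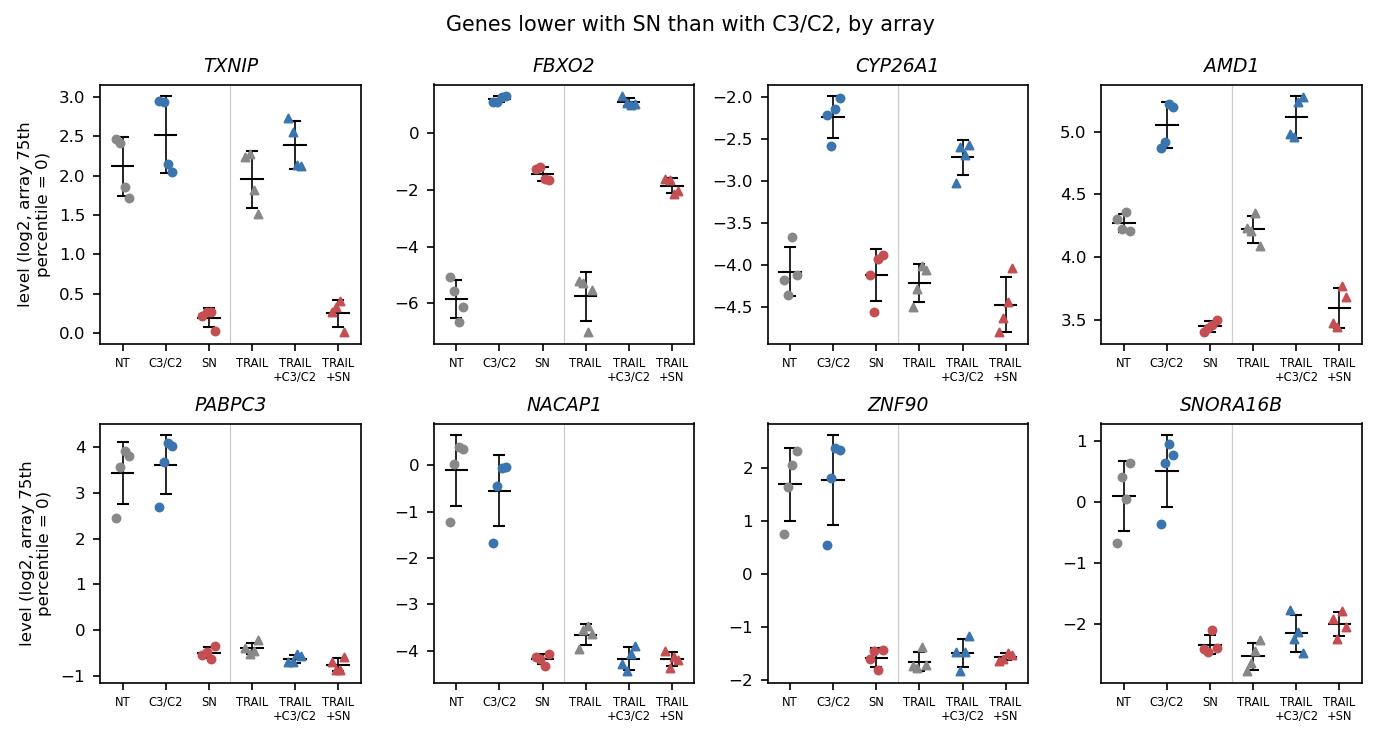
Levels of 8 genes on each array (vertical, log2 intensity with the 75th percentile of the array at 0) in the 6 groups, drawn as in the plot of rises. In the upper row TXNIP, FBXO2, CYP26A1 and AMD1 are lower with SN than with C3/C2 both without and with TRAIL, while in the lower row PABPC3, NACAP1, ZNF90 and SNORA16B are high only on the NT and C3/C2 arrays, which lay on slides 1 and 2, with replicate 1 the lowest of each group.

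Most of the 10 largest falls with levels above background on both sides were also falls in TRAIL against NT, the exceptions being FBXO2 and CEACAM22P. PABPC3, an intronless relative of the poly(A)-binding protein gene, was at 2.68, 3.66, 4.07 and 4.01 with C3/C2 and at -0.53, -0.48, -0.62 and -0.33 with SN. C3/C2 replicate 1, the array on slide 1, was the lowest of its group. The difference was -4.10 (SE 0.26), but TRAIL minus NT was -3.82 and TRAIL+SN minus TRAIL+C3/C2 was -0.13. The pseudogenes NACAP1 (-3.63) and DNAJA1P5 (-3.29), ZNF90 (-3.35), SNORA16B (-2.84, with a second probe at -0.29 that was not called), CLK3 (-2.46) and TWSG1 (-2.42) fell in both as well, with TRAIL minus NT between -3.54 and -1.97 and differences of -0.50 to 0.16 with TRAIL. HNRNPCL1, DAGLA and FKSG2, above background with C3/C2 and not with SN (at least 11.8-fold, 8.65-fold and 5.96-fold), were above background on all NT arrays. With TRAIL alone HNRNPCL1 and DAGLA were above background on no array, and FKSG2 fell by 2.18 against NT. HIST1H3J (-2.45) fell by 1.33 in TRAIL minus NT and by 1.00 in the presence of TRAIL.

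TRAIL against NT called 155 genes higher (0.749%) and 452 lower (2.18%). Of the 914 genes lower with SN than with C3/C2, 339 were also lower with TRAIL than in NT, which is 37.1% of the first list and 75% of the second. Of the 265 genes higher with SN, 10 were also higher with TRAIL (3.77% and 6.45%). In the 339 genes C3/C2 replicate 1 had a median difference of -0.65 from its group's remaining arrays, and NT replicate 1 from the other NT arrays by -0.55, against 0.00 and 0.03 over all genes tested. Of the 339, 70.8% were transcripts without a gene name, against 33.0% of all genes tested, and 18.1% of those matched to RefSeq were pseudogenes, against 2.27%. Their median difference with TRAIL was -0.21. The part of the slide in these falls cannot be told apart from that of the treatments.

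**Figure D5:**
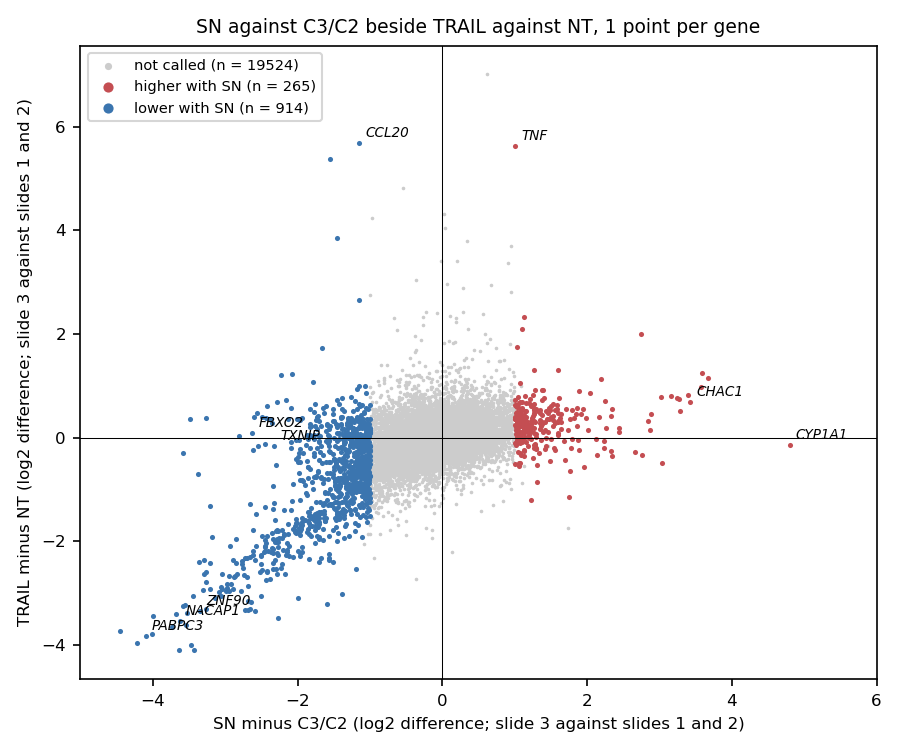
Log2 difference of SN minus C3/C2 (horizontal) against TRAIL minus NT (vertical), 1 point for each of 20703 genes, coloured by the call in the horizontal comparison. Both axes set slide 3 against slides 1 and 2; the blue arm at the lower left, with PABPC3 at -4.10 and -3.82, holds falls seen in both, whereas TXNIP and FBXO2 lie near zero on the vertical axis.

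The difference of SN minus C3/C2 between cells with and without TRAIL passed for 451 genes that were higher with TRAIL (2.18%) and 91 that were lower (0.44%). Taking the TRAIL minus NT difference out of SN minus C3/C2 left 208 genes higher and 585 lower. CYP1A1, CYP1B1, TIPARP, CHAC1, DDIT3, ATF3, FGF21, KRT14, KRT17, FBXO2, TXNIP and CYP26A1 passed without TRAIL, with TRAIL and after TRAIL minus NT was taken out. Of these, FGF21 (0.87) and CYP26A1 (-0.94) lost the call without TRAIL in 1 other alternative processing each.

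The identity of the cells was checked on defining markers. All 12 markers of colon epithelium, such as EPCAM, CDH1, KRT20 and VIL1, were well above background on all 8 arrays, and their summed level was 1010 to 1110 with C3/C2 and 1040 to 1170 with SN, on a linear scale where each array's 75th percentile is 1. Of 6 fibroblast markers 4 were at background on all 8 arrays, and their summed level was 0.649 to 0.695 with C3/C2 and 0.86 to 1.06 with SN; the part of this in the results was not tested. Of 6 leukocyte markers 4 were above background on all 8 arrays and 1 on none, with sums of 0.807 to 0.932 and 0.701 to 0.982. Of 4 endothelial markers 3 were above and 1 was not (0.332 to 0.438 and 0.237 to 0.349), and of 4 hepatocyte markers 2 were above and 1 was on no array (30.3 to 35.7 and 31.3 to 37.4). The 75th percentile of intensity was 724 to 798 in SN arrays and 770 to 899 in C3/C2 arrays, no probe was saturated, and replicates correlated at 0.9939 to 0.9977 across genes within the groups.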

How the data were processed

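RNA of HT29 cells was hybridised in 1 colour (Cy3) to Agilent arrays, 1 array per sample, 4 for each of 6 groups. Per the labels and file headers, the authors ran Agilent Feature Extraction 10.7.3.1 on the scans, which subtracts background and detrends within the array, and these deposited intensities were used. The authors' series table, which holds each intensity as a ratio to the median intensity of its array, served as an alternative. Control and outlier spots were dropped, log2 values of a probe's spots were averaged, and each array was centred on its 75th percentile. A probe had to be well above background on the 4 arrays of some group, which 27957 of 50599 were, and each gene took its brightest probe, giving 20703 genes, of which 17 miss the value of 1 array. All 24 arrays entered 1 limma fit (limma 3.58.1, R 4.3.3) of 6 group means. Calls needed a fold change of at least 2 and a Benjamini-Hochberg adjusted p under 0.05. The study's methods give a fold change and a p threshold without stating an adjustment. The fit was tested on simulated data. A lower bound replaced the fold where 1 group was not well above background: the mean of the brighter group was set against, per array, the higher of the lowest signal well above background and the probe's own. The number of arrays limits the precision.

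Genes were named by rule: the largest rises and falls with non-overlapping arrays, the largest bounds, the largest among those also called with TRAIL, up to 4 called members of each of 32 gene lists, or the member with the largest difference, and 7 of the apoptosis and cell cycle genes that the study lists. Members and lists were chosen with earlier results of these data known. Promoter windows were taken from RefSeq (GRCh38.p14). The main fit did not pair the arrays. Replicate numbers were taken to pair them only in an alternative fit with a replicate block. Deviations from the group means correlated at 0.203, 0.178, 0.271 and 0.176 between SN and C3/C2 arrays of the same number. The highest correlations with another number were 0.095, 0.154, 0.235 and 0.053, each with the other number of the pair 1 and 2 or 3 and 4. With TRAIL the same numbers correlated at 0.212 to 0.25, and TRAIL+SN replicate 3 slightly better (0.229) with another number. Alternatives changed the background correction, scaling, probe filter, probe choice, threshold, block, arrays in the fit and source table. Some genes that the rule names are not reported here.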

Additional observations from a re-analysis of the deposited data

Results flagged for a closer look

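In 9 of 196 groups of 4 arrays, over 98 named genes, 1 array lay far from the other 3 by Dixon's criterion, which chance gives in about 1 of 20 groups. SN replicate 1 was low for CD36 (-6.15, others -5.50 to -5.38), HCAR2 (-5.50, others -4.73 to -4.64) and SLC7A11 (4.16, others 4.36 to 4.37). TNFRSF10B was higher in SN replicate 2 (4.30, others 4.16 to 4.18) and SNORA16B in SN replicate 3 (-2.11, others -2.46 to -2.40). Among C3/C2 arrays, DAGLA was low in replicate 1 (-3.29, the next lowest -2.10) and SLC6A12 in replicate 2 (-3.61, others -3.15 to -3.06). FGF21 was high in replicate 3 (-6.25, others -7.85 to -7.73) and SLC25A37 in replicate 4 (-0.48, others -0.60 to -0.58). FGF21 was well above background on no C3/C2 array, CD36 on 2 of 4 SN arrays and HCAR2 on 3 of 4, so that these values lie at or near background.

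For 13 named genes the difference of SN minus C3/C2 was less negative with TRAIL than without it, by a tested change. The change was 2.27 for CLK3 (limma adjusted p = 9.92e-07), 3.32 for DAGLA, 2.79 for DNAJA1P5, 2.36 for FKSG2, 1.44 for HIST1H3J, 4.30 for HNRNPCL1, 1.63 for MT1M, 3.62 for NACAP1, 3.97 for PABPC3, 3.00 for SNORA16B, 2.44 for TWSG1 and 3.27 for ZNF90. These 12 were also called lower in TRAIL against NT, with PABPC3 at -3.82 and HIST1H3J at -1.33. DAGLA, HNRNPCL1 and FKSG2 were well above background on no SN and no TRAIL+SN array, so that their changes rest partly on background levels. The last of the 13, NFKBIA, changed by 1.18 and was called higher in TRAIL against NT (1.73). Slide and treatment cannot be told apart in the difference without TRAIL.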

How the results depend on the processing

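Counts of calls are given as SN against C3/C2, then the same with TRAIL, then TRAIL against NT, then the change of the difference with TRAIL, then genes called in both SN comparisons. The main counts, higher and lower, were 265 and 914, 202 and 529, 155 and 452, 451 and 91, and 132 and 242. With the array median as zero, 495 were higher in the first, 363 higher and 348 lower in the second, and 249 and 142 in both; the authors' table gave 495, 363, 348, 249 and 141. Spike-in scaling gave 673 and 523, 405 and 309, 84 and 752, and 293 and 112 in both. Quantile normalization gave 311 higher with TRAIL. Normexp gave 112 and 319, 70 and 83, 65 and 173, 206 and 17, and 61 and 45. With normexp 17 of the 98 named genes lost their call. Without a filter on dim probes there were 434 higher in the first, 340 higher in TRAIL against NT and 142 lower changes. With probes above background on all arrays compared there were 560 lower, 251 lower with TRAIL, 87 and 261 in TRAIL against NT, and 276 and 37 changes. Without a minimum fold there were 4496 and 5318, 3298 and 4491, 4212 and 2717, 1360 and 1453, and 2508 and 2567. The median of all genes moved from -0.05 to 0.12 with array median and to 0.22 with spike-in scaling. Taking TRAIL minus NT out left 585 falls; DAGLA (0.53), MT1M (0.60) and TWSG1 (0.16) then reversed (DAGLA partly on background levels), and 19 of the 98 named genes lost their call. Without slide 2, chosen after seeing the data, there were 285 falls in TRAIL against NT and 166 and 48 changes, and 8 named genes lost their call. The causes were not tested.

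Leaving out 1 array at a time gave 250 to 288 and 865 to 981 in the first comparison, 183 to 231 and 506 to 566 with TRAIL, 140 to 176 and 428 to 494 in TRAIL against NT, 402 to 494 and 83 to 94 changes, and 117 to 144 and 232 to 256 in both. With the replicate block, which pairs arrays by number, the counts were 270 and 919, 207 and 536, 160 and 457, 474 and 102, and 136 and 247, and the call of none of the 98 named genes changed. This block also takes out any difference between experiments that hold whole replicate numbers. Levels not well above background are bounds only.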

Other observations

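The genes of this section were chosen after their values were seen. Among transporters that take up organic osmolytes, the myo-inositol carrier SLC5A3 was at 3.98, 4.29, 4.45 and 4.48 with C3/C2 and at 2.59, 2.69, 2.78 and 2.79 with SN. The groups were apart, with a difference of -1.59, and of -1.50 with TRAIL. Against NT, SLC5A3 stood at 1.20 for C3/C2 and -0.39 for SN. Its neighbour MRPS6, which shares the start of its transcripts with SLC5A3, fell likewise (-1.35, and -1.26 with TRAIL). The betaine carrier SLC6A12 fell by 1.72. No NT array and 1 of 4 TRAIL+SN arrays measured it well above background. The taurine carrier SLC6A6 (-0.18), aldose reductase AKR1B1 (-0.19) and the tonicity-responsive factor NFAT5 (-0.04) did not pass.

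Among immune genes, IL6R, the interleukin 6 receptor, was at -2.15, -1.88, -2.39 and -2.28 with SN and at -3.80, -4.00, -4.10 and -4.31 with C3/C2, a rise of 1.88, and of 1.64 with TRAIL. IL1A was well above background on all 4 SN arrays and on 1 of 4 C3/C2 arrays, so that its size without TRAIL is not firm, and it rose by 1.19 with TRAIL. CD274, which encodes PD-L1, rose by 1.06 and 1.05. The CD274 call without TRAIL was lost when C3/C2 replicate 4 (0.97), SN replicate 1 (1.00) or SN replicate 2 (1.00) was left out. It was also lost after TRAIL minus NT, which holds any effect of TRAIL, was taken out (0.63). CD274 was well above background on no NT array. Its lowest difference in any alternative was 0.45. CSF3, the granulocyte growth factor, was well above background with C3/C2 and not with SN, at least 2.63-fold lower. CXCL10, an interferon-inducible chemokine, was well above background on all 4 TRAIL+C3/C2 arrays and on no array of TRAIL+SN, SN or C3/C2. Among further genes of amino acid supply, the neutral amino acid carrier SLC1A4 rose 4.71-fold. ULBP1, a stress ligand of natural killer cells that ATF4 induces, rose 4.37-fold. NR0B2, a nuclear receptor that represses bile acid synthesis, was at 0.05 to 0.24 with C3/C2 and at -1.89 to -1.40 with SN, a fall of 1.77, and of 1.76 with TRAIL.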
